A study of Mus musculus with 12 samples.

Results

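The departure of a double knockout from its summed single knockouts was measured gene by gene in mouse muscle. For each gene symbol, the mean log2 ratio on the arrays of mice lacking PGC-1alpha and, in muscle, PGC-1beta was taken, and the sum of the mean ratios of both single knockouts was subtracted. The result is called the departure here: 0 means that the log2 effects of the single losses add up, a negative value that the double knockout lies below their sum, and a positive value that it lies above it. It was formed from 8 of the 12 arrays (9 with the third beta array), and the other 3 arrays served as a separate measurement of the same quantity. Of 19437 genes with 1 symbol, 18699 had a departure (18884 with the third beta array kept), and 11777 had a usable ratio on at least 2 arrays of every group and were tested.

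All RNA came from gastrocnemius, a calf muscle, of male mice of 12 weeks on a C57BL6/J x sv129 background. The alpha arrays compared PGC-1alpha -/- muscle with PGC-1beta f/f muscle, the beta arrays compared PGC-1beta f/f/Mlc1fCre muscle with PGC-1beta f/f muscle, and the double arrays compared PGC-1alpha -/- PGC-1beta f/f/Mlc1fCre muscle with PGC-1beta f/f muscle, on 3 arrays each by their titles. A further 3 arrays, called direct, set the double knockout against PGC-1alpha -/- muscle and hold no floxed control RNA. PGC-1alpha was missing in the whole body, whereas Mlc1f drives Cre in muscle fibres, so other cells of the tissue keep PGC-1beta, and the controls carry the floxed gene without Cre. The knockout (on the direct arrays, the double knockout) carried the dye Cy5 and the reference Cy3 on all 12 arrays, with no dyes exchanged. The labels do not say whether arrays or control pools came from separate mice, so p-values measure the spread between arrays only. In bulk muscle, fewer cells of a type and less RNA per cell cannot be told apart.

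The coactivators PGC-1alpha (gene Ppargc1a) and PGC-1beta (gene Ppargc1b) bind no DNA on their own and are brought to promoters by factors such as ERRalpha, NRF1, GABP and the PPARs. In muscle they raise the expression of the respiratory chain, the citric acid cycle and fatty acid oxidation, and PGC-1alpha is also known for its link with slow, oxidative fibres. The proteins are related and share many partners, so each may cover for the loss of the other. A departure from the summed single effects is the usual way to look for such cover.

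Several properties of the arrays bear on every value below. Titles and channel labels disagree about the group on 6 of the 12 arrays. The labels name alpha 2 and double 2 as beta, beta 1 and double 1 as alpha, and alpha 3 and beta 3 as double knockouts. The titles were used, and the authors' deposited mean ratios equal the means of those title groups, for beta only with arrays 1 and 2. The third beta array correlated at -0.31 to 0.04 with the alpha arrays and the other two beta arrays, which correlated at 0.36 to 0.67 across those groups, and it is left out unless named. The double arrays correlated at only 0.03 to 0.26 with each other. With the alpha arrays and beta 1 and 2, double 1 correlated at 0.30 to 0.59, double 2 at 0.13 to 0.30 and double 3 at -0.13 to 0.12. Each array's values carry 1 scaling factor, which was 0.19 to 0.50 on the alpha arrays and beta 1 and 2, 0.36, 1.13 and 5.73 on double 1, 2 and 3, 4.84 on beta 3 and 3.31 to 6.57 on the direct arrays. Of the probes, 50.2% to 78.2% gave a usable ratio on an array, and the number of arrays limits the precision.

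The targeted genes check the labels first. Ppargc1a had log2 ratios of -1.50, -2.55 and -1.28 on the alpha arrays, -0.05 and -0.47 on the beta arrays and -0.85, -1.94 and -1.19 on the double arrays, lower in both groups that lack it (limma adjusted p = 0.0048 on alpha and 0.044 on double). Its departure was 0.71 ± 0.54 (SE; 3 alpha, 2 beta and 3 double arrays), with an adjusted p of 0.44. On the third beta array Ppargc1a was -0.99. On beta 1 and 2 its probes disagreed, at -0.83 and -1.01 against 0.64 and 0.06. On the direct arrays, where PGC-1alpha is missing from both RNAs, Ppargc1a read 0.99, 0.53 and 0.69 (limma adjusted p = 0.11). Ppargc1b, averaged over its probes, was 0.64 and 0.91 on the beta arrays and 0.37, 0.32 and 0.14 on the double arrays, so neither group read below floxed muscle. On the direct arrays, where PGC-1beta is missing from the double knockout alone, it was -0.15, -1.45 and -1.92, lower in the double than in the alpha knockout (adjusted p = 0.031). The alpha arrays read it above floxed muscle, at 0.72, 1.36 and 1.36 (adjusted p = 0.029), and the third beta array gave -0.78. Whether the Ppargc1b probes lie in the deleted part is not given in the sources used here.

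The genes that make the pattern visible are 5 mitochondrial genes and Chchd10. Sdhb encodes the iron-sulfur subunit of succinate dehydrogenase, which feeds electrons from the citric acid cycle into the respiratory chain. Uqcrc1, a core subunit of complex III, and Atp5g2, a c-ring subunit of ATP synthase, are members of the same chain. Their promoters are printed here, from 250 bases before to 50 after the start of the gene, from RefSeq on GRCm38.p6 (chr4:140961021-140961320, plus strand; chr9:108936398-108936697, plus strand; chr15:102670998-102671297, minus strand). Capitals mark CCGGAAG, letters bound by GABP and other ETS factors, in Sdhb and the 10 letters bound by NRF1 in Uqcrc1 and Atp5g2. Uqcrc1 and Atp5g2 were picked from the named genes called below the sum because their windows hold the NRF1 letters. The windows of Ndufa10, Atp5g1, Got2 and Chchd10 held no match of the motifs searched and are not printed.
Sdhb: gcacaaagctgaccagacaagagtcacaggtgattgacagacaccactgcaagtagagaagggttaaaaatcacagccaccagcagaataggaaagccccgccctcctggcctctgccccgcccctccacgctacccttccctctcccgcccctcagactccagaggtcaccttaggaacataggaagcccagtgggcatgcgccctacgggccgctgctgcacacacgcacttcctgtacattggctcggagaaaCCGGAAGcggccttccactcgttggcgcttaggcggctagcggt
Uqcrc1: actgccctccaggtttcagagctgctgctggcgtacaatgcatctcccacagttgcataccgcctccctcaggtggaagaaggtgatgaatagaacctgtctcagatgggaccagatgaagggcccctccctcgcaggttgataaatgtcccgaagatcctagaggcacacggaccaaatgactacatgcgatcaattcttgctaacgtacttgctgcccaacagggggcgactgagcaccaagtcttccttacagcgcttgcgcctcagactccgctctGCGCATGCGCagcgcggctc
Atp5g2: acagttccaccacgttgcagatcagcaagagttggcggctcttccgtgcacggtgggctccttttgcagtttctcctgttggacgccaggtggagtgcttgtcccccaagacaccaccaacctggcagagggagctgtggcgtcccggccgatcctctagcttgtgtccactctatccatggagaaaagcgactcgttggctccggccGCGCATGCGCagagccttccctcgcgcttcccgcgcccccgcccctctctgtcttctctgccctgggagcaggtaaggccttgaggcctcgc

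Sdhb, on chromosome 4 (140961271 to 140979198), had log2 ratios of 1.29, 0.21 and 1.15 on the alpha arrays and 1.49 and 0.18 on the beta arrays. On the double arrays it was -1.17, -1.88 and -3.40, below every single knockout array used. The double mean lay on the other side of 0 from both single means, and the departure was -3.87 ± 0.80 (SE; 3, 2 and 3 arrays; limma adjusted p = 0.032 over all 11777 genes). The direct arrays, where the double knockout is read against the alpha knockout, gave -2.10, -1.86 and -3.17. On the third beta array it was -1.92, close to the double arrays rather than to the other two beta arrays.

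Got2, the mitochondrial aspartate aminotransferase of the malate-aspartate shuttle, had 1.39, 1.20 and 1.15 on the alpha arrays, 0.91 and 1.28 on the beta arrays and -0.18, -0.87 and -1.52 on the double arrays. The double arrays lay below every single knockout array used, while alpha and beta arrays overlapped. The departure was -3.20 ± 0.50 (SE; adjusted p = 0.017). Atp5g1, another c-ring subunit of ATP synthase, had 0.97, 0.60 and 1.41 on alpha, 1.00 and 0.39 on beta and -1.07, -0.99 and -1.76 on double arrays, a departure of -2.96 ± 0.48 (SE; adjusted p = 0.018). Ndufa10, a subunit of complex I, had 1.97, 1.24 and 2.13 on alpha, 2.04 and 0.58 on beta and 0.19, -0.59 and -1.95 on double arrays, and departed by -3.88 ± 0.80 (SE; adjusted p = 0.034). All 3 genes were thus above floxed muscle on the single knockout arrays and mostly below it on the double arrays. The third beta array gave -1.30 for Got2, -2.14 for Atp5g1 and -1.08 for Ndufa10.

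Tomm7, a small subunit of the outer membrane import complex, ran the other way. It had -1.66, -1.87 and -1.89 on the alpha arrays, -1.20 and -1.56 on the beta arrays and -1.01, -0.33 and 0.19 on the double arrays. The double knockout therefore lay nearer to floxed muscle than either single knockout, 2.80 ± 0.56 above the sum (SE; adjusted p = 0.029). The third beta array gave -1.60, here on the side of the other beta arrays. These 5 genes were given with the experiment, chosen with results of these data known, and stand as a description of the pattern.

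**Figure D1:**
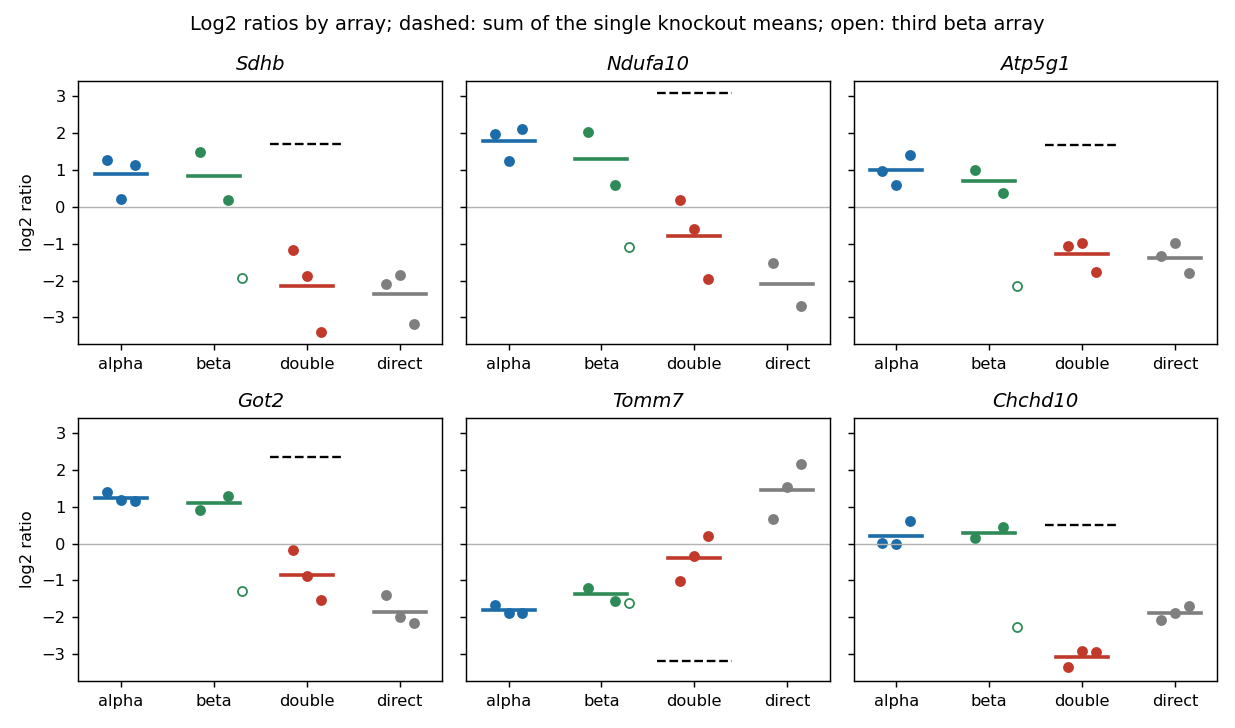
Log2 ratios of 6 genes on each array (y axis) by group (x axis). Filled points are arrays, solid bars group means, open circles the third beta array, and the dashed line over the double arrays is the sum of the single knockout means. For Sdhb, Ndufa10, Atp5g1, Got2 and Chchd10 all double arrays lie below the dashed line, and for Tomm7 all lie above it.

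Chchd10 had the clearest loss that appeared with both coactivators missing. It encodes a small protein of the mitochondrial intermembrane space linked with cristae. Its log2 ratio was 0.01, -0.01 and 0.62 on the alpha arrays and 0.15 and 0.44 on the beta arrays, but -3.35, -2.90 and -2.95 on the double arrays. The departure was -3.57 ± 0.40 (SE; adjusted p = 0.015), and the direct arrays gave -2.07, -1.87 and -1.69. The third beta array, at -2.27, again lay near the double arrays. In the authors' deposited table its mean ratios to floxed muscle were 1.20, 1.20 and 0.12 for the alpha, beta and double knockouts. Because its single knockout values lie near 0, this departure is nearly the double knockout's own change (adjusted p = 0.00019 against floxed muscle).

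Across all tested genes, 511 departed from the sum at an adjusted p under 0.05 (limma, Benjamini-Hochberg), which is 4.34% of 11777: 359 lay below the sum (3.05%) and 152 above it (1.29%). The median departure of all genes was -0.18. Against their references alone, 14.9% of genes were called on the alpha arrays (9.98% higher, 4.94% lower), 0.00849% on beta 1 and 2 (1 gene, higher; 1936 at an unadjusted p under 0.05), 1.81% on the double arrays (0.56% higher, 1.25% lower) and 12.7% on the direct arrays (4.44% higher, 8.24% lower). These calls rest on few arrays: none was left when the third beta array was kept, or when either of the other two beta arrays or alpha 3 was left out, although 1595, 1808, 2489 and 2197 genes then had an unadjusted p under 0.05. Every one of the 511 genes kept its direction with the third beta array kept. They were called on arrays that all stay in that fit, so the direction is largely fixed by the calls. Without centring the count of calls was 12, with 11 above and 1 below the sum.

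Genes were then sorted by the single knockouts. A gene counted as flat when both single means lay within 0.5 of 0 on the log2 scale, as raised or lowered when at least 1 lay beyond 0.5 on that side and none beyond it on the other, and as opposed otherwise. The classes name positions, not tests. Since the single means enter the departure with a minus sign, a negative departure among raised genes and a positive one among lowered genes is partly fixed by the sort. Of 4890 flat genes, 8 were called below and 1 above the sum (0.184% in all). Of 3883 raised genes 349 were called below and none above, and of 2922 lowered genes 151 were called above and 2 below (8.99% and 5.24% called). None of the 82 opposed genes was called by limma (6 at an unadjusted p under 0.05). By the rule alone, dim ratios kept and over all 18699 genes, the median departure was -0.11 for flat, -1.34 for raised and 1.44 for lowered genes.

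**Figure D2:**
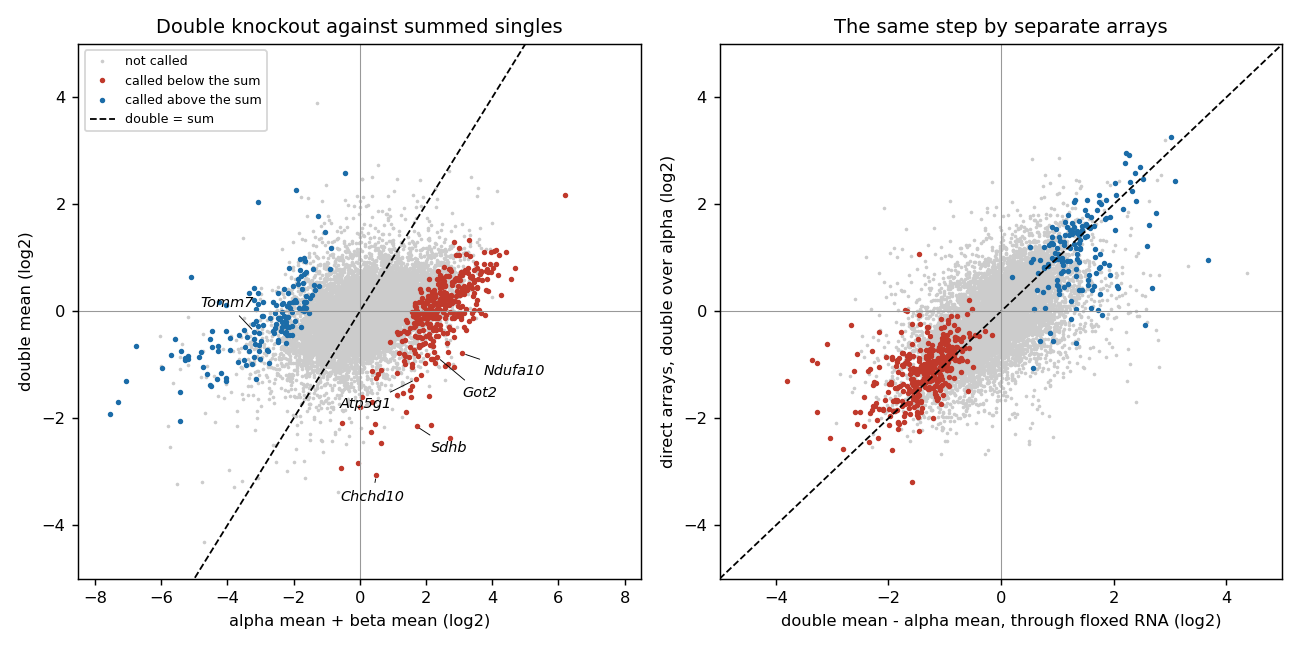
Left, the double mean (y) against the sum of the single means (x), log2, 1 point per gene, with the line where they are equal; right, the double mean minus the alpha mean (x) against the direct arrays (y), log2. Red points are the 359 genes called below the sum, blue the 152 above it and grey the rest; most red points lie right of 0 with double means near 0, and on the right they lie at the lower left.

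The 349 raised genes called below the sum had median log2 ratios of 1.37 on the alpha, 1.08 on the beta and 0.11 on the double arrays. In 218 of them the double mean lay within 0.5 of 0, in 75 it stayed above 0.5, and in 56 it lay below -0.5, as for Sdhb, Ndufa10, Atp5g1 and Got2. The 151 lowered genes mirrored this, with medians of -1.43, -1.24 and -0.23, and 83, 49 and 19 of them lay within, below and above these limits. These genes were called on the same double values, so the split describes them and no more. Over all 3883 raised genes, called or not, the double mean lay within 0.5 of 0 in 2547 (65.6%), above 0.5 in 1026 (26.4%) and below -0.5 in 310 (7.98%). Over all 2922 lowered genes it lay within these limits in 1646 (56.3%), below in 1065 (36.4%) and above in 211 (7.22%).

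Of 4890 flat genes 9 were called (0.184% against 4.34% of all tested genes), 3 of them also by direct minus beta. The low share is partly fixed by the sort, which keeps both single means near 0, and these enter the departure. Neither single knockout had moved the 9 genes past the limit. Beside Chchd10, Cox4i1, a nuclear-encoded subunit of cytochrome c oxidase, departed by -1.79 ± 0.41 (SE), Atp5a1, the alpha subunit of ATP synthase, by -1.74 ± 0.41 and Ndufa8 of complex I by -1.66 ± 0.34 (adjusted p = 0.040, 0.042 and 0.032). Their double arrays read -1.79, -1.46 and -2.09 for Cox4i1, -0.95, -1.11 and -1.22 for Atp5a1 and -1.70, -1.49 and -1.60 for Ndufa8. In each gene these values lie below every single knockout array used. With groups taken from the channel labels instead, the departures of Chchd10, Cox4i1, Atp5a1 and Ndufa8 were 0.72, 0.44, 0.018 and 0.34, none of them called, and with the array factor as a covariate those of Cox4i1 and Atp5a1 were 0.48 and 0.33. Outside the naming rule, since each had only 2 double arrays, the flat genes also held Acad8, a mitochondrial acyl-CoA dehydrogenase of valine breakdown, at -2.59, Mrgbp at -2.57 and Arsk at -2.79. Arsk turned positive (0.32) with dim ratios kept. The 1 gene above the sum, Fndc1, was 0.79 on the double arrays by the average over its probes, while a probe in the authors' deposited table had a mean ratio of 0.32.

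Fndc5, the precursor of irisin and a known target of PGC-1alpha in muscle, was 1 of the 2 lowered genes called below the sum; the other was Fuom. Fndc5 had -1.10, -0.60 and -0.76 on the alpha arrays, 0.13 and 0.43 on the beta arrays and -2.10, -2.04 and -2.14 on the double arrays. By the average over its probes it was lower with PGC-1alpha missing (adjusted p = 0.019) and with both missing (adjusted p = 0.00078), and the departure was -1.55 ± 0.36 (SE; adjusted p = 0.041). Its probes disagreed on the single knockouts. In the authors' deposited table one had mean ratios of 1.12, 1.72 and 0.29 for the alpha, beta and double knockouts and the other 0.31, 0.82 and 0.20, so the place among lowered genes rests on the second. The direct arrays gave -1.11, -1.26 and -0.89. Fuom, outside the naming rule, departed by -2.36 ± 0.56 (SE) on 2 double arrays.

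The genes of largest departure were named among those with all 8 values and the double arrays on 1 side of the sum. Below the sum among raised genes these were Ndufa10 and Sdhb, described above, Cacna2d1, a calcium channel subunit of the muscle membrane (-3.96 ± 0.55, SE), Bckdk, the kinase that switches off branched-chain amino acid breakdown (-3.88 ± 0.63), Dstn, an actin-severing protein (-3.97 ± 0.68), and Cdadc1 (-5.08 ± 1.07). Cacna2d1 had 2.61, 2.55 and 2.80 on alpha, 1.40 and 1.83 on beta and 0.44, 0.22 and 0.24 on double arrays, a return toward 0 with little spread. The departure of Dstn was 0.18 with dim ratios kept, and the probes of Cdadc1 disagreed, with the authors' deposited mean ratios for the double knockout at 1.04 and 7.78. Above the sum among lowered genes stood Adam10, a membrane protease (6.12 ± 0.90), Mrgpra2b, a Mas-related G protein-coupled receptor (5.74 ± 0.80), Ccdc78 (5.62 ± 0.89), Ugt2b34, a glucuronosyltransferase (4.90 ± 0.96), and Dlx5, a homeobox factor of bone and limb (4.41 ± 0.83). Adam10 had -3.88, -3.36 and -3.96 on alpha, -3.50 and -2.56 on beta and -2.40, -0.29 and 0.75 on double arrays, with its double arrays spread over more than 3 log2 units.

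The direct arrays offer the same quantity without the alpha and double arrays. If log2 effects add, the step from alpha to double knockout equals the beta effect, so direct minus beta is 0. A dye bias common to all arrays cancels in this difference, but not in the departure. By this route 1673 genes were called (14.2%), 586 above and 1087 below 0 (4.98% and 9.23%). The balance depended on the processing, with 73 above and 613 below without centring and, with the array factor as a covariate, 2240 above and 895 below. Both measures use the beta arrays and are therefore given side by side. Direct minus beta was -3.21 for Sdhb, -3.42 for Ndufa10, -2.07 for Atp5g1, -2.95 for Got2, 2.84 for Tomm7, -2.17 for Chchd10 and -1.37 for Fndc5 (adjusted p = 0.0041 to 0.017). It was -1.02 for Atp5a1 and -0.75 for Cox4i1, which missed the threshold (adjusted p = 0.069 and 0.17).

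The double minus the alpha mean and the direct arrays measure the same step and share no array. Across the 11777 genes they correlated at r = 0.62 (Spearman 0.63), with the same sign in 74.2%; genes are not independent replicates, and array factors were above 1 on the direct arrays and on double 2 and 3. No gene differed between these routes at an adjusted p under 0.05 (limma; 437 at an unadjusted p under 0.05, and 1792 with groups taken from the channel labels). Sorting by the alpha mean alone, direct minus beta had a median of -1.25 in 3383 raised genes, of which 991 were called below and 1 above 0 (29.3% below against 9.23% of all). It was 0.97 in 2245 lowered genes, with 485 called above and 4 below (21.6% above against 4.98%), and -0.00 in 6149 flat genes, with 100 above and 92 below. The sort and this measure share no array, but PGC-1alpha -/- RNA is the numerator of the first and the denominator of the direct arrays. Floxed RNA is the denominator of both the alpha and the beta arrays. A deviation in either RNA would move raised genes below 0 and lowered genes above 0. These directions may therefore be partly fixed by the sort, and the size of that part was not tested.

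The called genes also followed the array factor. The median of the 349 genes was 1.40, 1.25 and 1.45 on the alpha arrays, 1.14 and 0.99 on beta 1 and 2 and -0.86 on beta 3, 0.42, 0.13 and -0.22 on double 1, 2 and 3 and -0.81, -1.13 and -1.33 on the direct arrays. The array named beta 3, with a factor of 4.84, thus read these genes like the direct arrays. Of the double arrays, the 1 with a factor like the single knockout arrays, double 1 at 0.36, gave the highest median. For the 151 genes the double arrays read -0.67, -0.17 and 0.20 and beta 3 read 0.08. With the factor as a covariate on 12 arrays, an alternative added after seeing the data, 1009 genes were called, 732 above and 277 below the sum, and 437 of the 511 genes kept their direction. The part of the factor in each group's values cannot be told apart from the group where both move together.

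**Figure D3:**
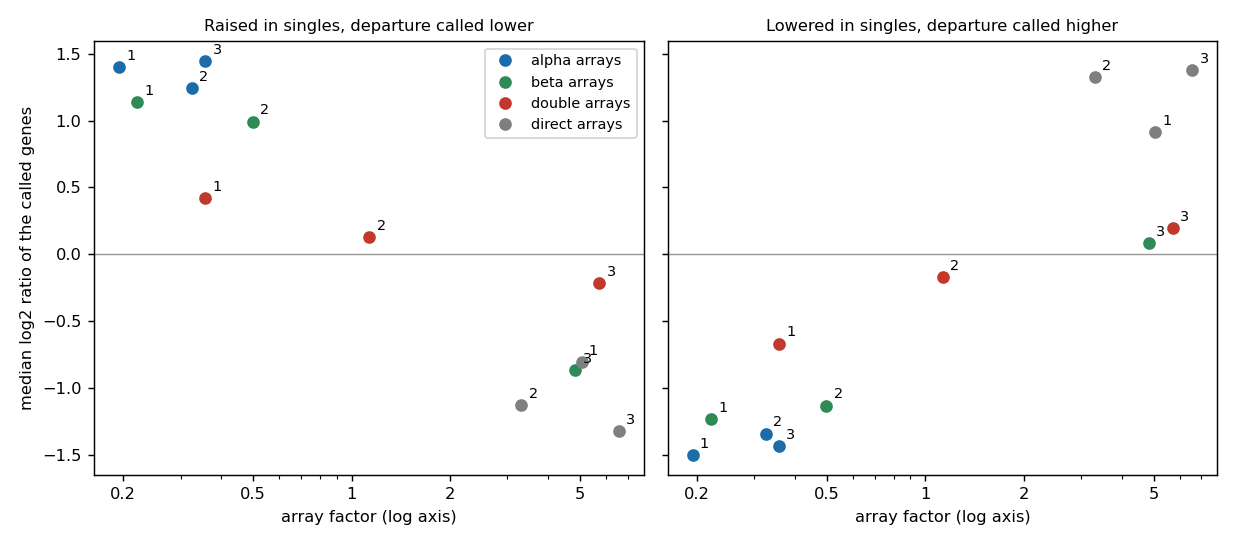
Median log2 ratio (y) of the called genes on each array against the array's scaling factor (x, log axis), for the 349 raised genes called below the sum (left) and the 151 lowered genes called above it (right). Colours are groups and numbers are replicates. Arrays with factors under 1 lie above 0 on the left and below 0 on the right, and those with factors over 3 lie on the other side of 0 in both panels.

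Among the gene lists, complexes II and III and ATP synthase held the highest shares of genes called below the sum. Over all tested genes the shares were 3.05% below and 1.29% above, and over the 3987 genes with every probe value used they were 5.79% and 1.61%. Complexes II and III with cytochrome c had 5 of 13 called below (38.5% against 3.05%; median departure -1.53 against -0.18 for all genes): Sdhb, Sdhc, Cyc1, Uqcrc1 and Sdhd. Sdhc, a membrane anchor of succinate dehydrogenase, had 1.54, 1.37 and 1.83 on alpha, 1.14 and 0.82 on beta and -0.33, -1.34 and -1.38 on double arrays, a departure of -3.58 ± 0.46 (SE). Cyc1, the cytochrome c1 of complex III, departed by -2.83 ± 0.43 and Uqcrc1 by -2.59 ± 0.36. Of 14 ATP synthase genes, 5 were called below (35.7%), Atp5d (-3.06), Atp5g1, Atp5g2 (-2.38), Atp5b (-2.29) and Atp5a1, and none above. Their median departure was -0.49, while their median direct minus beta was 0.55, with 4 called below and 1 above 0. Complex I had 5 of 34 below (14.7%) and none above, with a median of -0.80, among them Ndufv1, which holds the site where NADH is oxidised (-2.68 ± 0.38), and Ndufa9 (-1.83 ± 0.36).

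Of the respiratory lists, complex IV, cytochrome c oxidase, had the median departure nearest to 0. Its 15 genes had a median of -0.00, with 1 called below, Cox4i1, and 1 above, the copper chaperone Cox17 (3.15 ± 0.62, SE). Its structural subunits differed among themselves, and those named next were picked after their values were seen. Cox7c, Cox6c and Cox7a2 had negative means on both single knockout groups and a double mean near their sum. Cox7c was -1.20 on alpha, -0.71 on beta and -2.29 on double arrays, a departure of -0.38 ± 0.37 (SE). Cox6c was -0.74, -0.88 and -1.61, with a departure of -0.00 ± 0.67, and Cox7a2 was -0.87, -0.65 and -1.60, with -0.08 ± 0.46. Cox7b, in contrast, was -1.77, -1.54 and -1.17, 2.14 ± 0.64 above its sum (adjusted p = 0.079), and Cox5b was -0.39, -0.52 and -2.02, a departure of -1.11 ± 0.36 (adjusted p = 0.10). Cox6a2, a muscle isoform, was 0.01 and 0.29 on the single knockouts and -0.47 on the double arrays (-0.78 ± 0.40). In ATP synthase, Atp5k (-0.90, -1.28 and -1.87; departure 0.32 ± 0.45) did likewise. Departures within these errors were not detectable with this number of arrays.

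The citric acid cycle list had 3 of 21 below (14.3% against 3.05% of all tested genes) and none above (median -1.39). They were Got2, its cytosolic partner Got1 (-3.24 ± 0.53, SE) and Idh3a, the catalytic subunit of NAD-dependent isocitrate dehydrogenase (-2.84 ± 0.67). Cs, citrate synthase, outside the naming rule, was -0.02, 0.04 and -0.59 on alpha, beta and double arrays. Fatty acid oxidation had 3 of 18 below (16.7%): Echs1 (-2.35 ± 0.47), Decr1 (-2.28 ± 0.45) and the carnitine carrier Slc25a20 (-1.82 ± 0.38). Cpt1b, the carnitine palmitoyltransferase of muscle, departed by -0.04 ± 0.37 and did not pass. Antioxidant enzymes had 3 of 17 below (17.6%), Prdx2 (-3.57 ± 0.66), Gpx1 (-2.60 ± 0.52) and Gpx4 (-1.94 ± 0.47).

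The mitochondrial ribosome had 8 of 74 below (10.8% against 3.05% of all tested genes) and none above (median -0.65), led by Mrps23 (-3.21 ± 0.42, SE), Mrps11 (-2.67 ± 0.44), Mrpl2 (-2.62 ± 0.61) and Mrpl12 (-2.60 ± 0.41). Import and dynamics had 3 of 28 below (10.7%), the fission receptor Fis1 (-2.67 ± 0.47), Timm13 (-2.32 ± 0.54) and Timm23 (-1.94 ± 0.49), and 1 above, Tomm7. Mitochondrial carriers had 1 of 23 below (4.35%, near the share of all genes), the pyrimidine carrier Slc25a33 (-2.57 ± 0.60). Mitochondrial DNA maintenance had 1 of 11 each way, the ribosomal RNA methyltransferase Tfb1m (-1.72 ± 0.41) and Mterf2 (1.87 ± 0.42). Chaperones likewise had 1 of 13 each way, prohibitin 2, Phb2 (-2.16 ± 0.49), and the co-chaperonin Hspe1 (2.02 ± 0.43). In lists this short, 1 called gene is 9.09% and 7.69% of the list.

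Of the list of 23 transcription factor partners of PGC-1, which also holds the coactivator gene Ppargc1b, none was called by limma, against 4.34% of all tested genes. The median departure of the list was -0.90, and 5 had an unadjusted p under 0.05. Mef2a, a muscle factor, came nearest at -1.59 ± 0.41 (SE, limma adjusted p = 0.051). AMP kinase had 1 of 7 below (14.3% against 3.05% of all tested genes), Prkaa2, the catalytic subunit prevailing in muscle. Prkaa2 had 1.92, 1.76 and 2.50 on alpha, 1.25 and 1.46 on beta and 0.49, -0.02 and -0.82 on double arrays (departure -3.53 ± 0.60). Insulin signalling and glycolysis had none of 11 and none of 18 called, against 4.34% of all tested genes (3 and 5 at an unadjusted p under 0.05). Irs1 was at 1.90 ± 0.54 (limma adjusted p = 0.071) and Hk2 at -2.12 ± 0.52 (adjusted p = 0.051). Atrophy and autophagy genes had 3 of 18 below (16.7%), Bnip3 (-2.86 ± 0.57), the ubiquitin ligase Trim63 (-2.74 ± 0.61) and Bnip3l (-1.73 ± 0.43), and 1 above, the protease Ctsl (1.73 ± 0.41). The proteasome had 2 of 31 below (6.45%), Psmd2 (-2.33 ± 0.42) and Psmd7 (-2.14 ± 0.45). Cytosolic ribosomal proteins had 4 of 57 below (7.02% against 3.05% of all tested genes), among them Rpl4 (-2.46 ± 0.51), Rps9 (-2.30 ± 0.56) and Rpl8 (-2.12 ± 0.49), and 1 above, Rps4x (2.18 ± 0.47). By direct minus beta the balance of this list was the opposite, with 15 above and 6 below 0 and a median of 0.45, against -0.08 for the departure.

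Contractile genes were read as well, since PGC-1alpha is linked with slow fibres. Slow fibre genes had medians of 1.00 on alpha, 0.83 on beta and 0.87 on double arrays, so all 3 groups lay above floxed muscle. A change common to the knockouts and a low value in the floxed RNA cannot be told apart here, and such a value enters the departure too. Tnnt1, the slow troponin T, was 2.25, 1.90 and 2.26 (departure -1.89 ± 0.64, SE; adjusted p = 0.11), and Myh7, the slow myosin heavy chain, 0.97, 0.74 and 1.75 (0.04 ± 0.42). The 1 slow fibre gene of 15 called (6.67% below against 3.05% of all tested genes) was Mb, myoglobin, the oxygen store of oxidative fibres. It had 1.46 and 1.14 on the alpha arrays that measured it, 1.40 and 1.04 on beta and 0.11, -0.41 and -0.90 on double arrays, a departure of -2.92 ± 0.47 (adjusted p = 0.018). The direct arrays gave -0.02, -0.09 and 0.21 for Mb, not the fall that double minus alpha would give. Fast fibre genes had 2 of 10 below (20% against 3.05% of all tested genes), Actn3 (-2.30 ± 0.48) and Myoz1 (-1.47 ± 0.37). Their means on the direct arrays were near 0, at -0.09 and 0.05. Direct minus beta was -1.51 for Actn3 and -0.91 for Myoz1 (limma adjusted p = 0.032 and 0.069).

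Markers of other cells were read beside these lists. None of 8 endothelial, 8 macrophage, 6 adipocyte and 5 Schwann cell markers was called by limma, against 4.34% of all tested genes. In each list 1 had an unadjusted p under 0.05, and the median departures were -0.63, -0.34, 0.36 and 0.96. The nearest of each were Cldn5 (-2.53, adjusted p = 0.062), Cd163 (2.84, 0.082), Cidec (0.86, 0.20) and S100b (1.92, 0.11). Of 11 matrix markers, Fmod was called below the sum (-2.70 ± 0.59, SE), 9.09% of the list against 3.05% of all tested genes. The angiogenic list had 1 of 7 below (14.3%), Hif1a, the oxygen-sensing factor (-2.58 ± 0.60). Red blood cell markers had the lowest median of these lists. All 5 tested lay below the sum, 4 at an unadjusted p under 0.05 and 1 called (20%), Hba-a2 (-2.41 ± 0.53), with departures from -2.41 to -0.97. Their median departure was -1.57, beside -1.53 for complexes II and III, and their part in the result was not tested. Of 10 muscle fibre markers 6 were tested and none called (1 at an unadjusted p under 0.05, Mybpc1 at -2.35, adjusted p = 0.066), and ratios give no level that could check the tissue.

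The signs of the list medians depended on the processing. With the array factor as a covariate, the medians were 0.93 for complex I, 0.40 for complexes II and III, 0.95 for ATP synthase, 1.41 for complex IV, 0.58 for the citric acid cycle and 1.32 for the mitochondrial ribosome, where that of all genes was 0.24. With the third beta array kept they were 0.00, -0.61, 0.14, 0.45, -0.83 and 0.26, where that of all genes was 0.04. Those of complex IV, cytosolic ribosomal proteins and matrix markers also changed sign when arrays were scaled to 1 spread (0.02, 0.07 and 0.20).

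**Figure D4:**
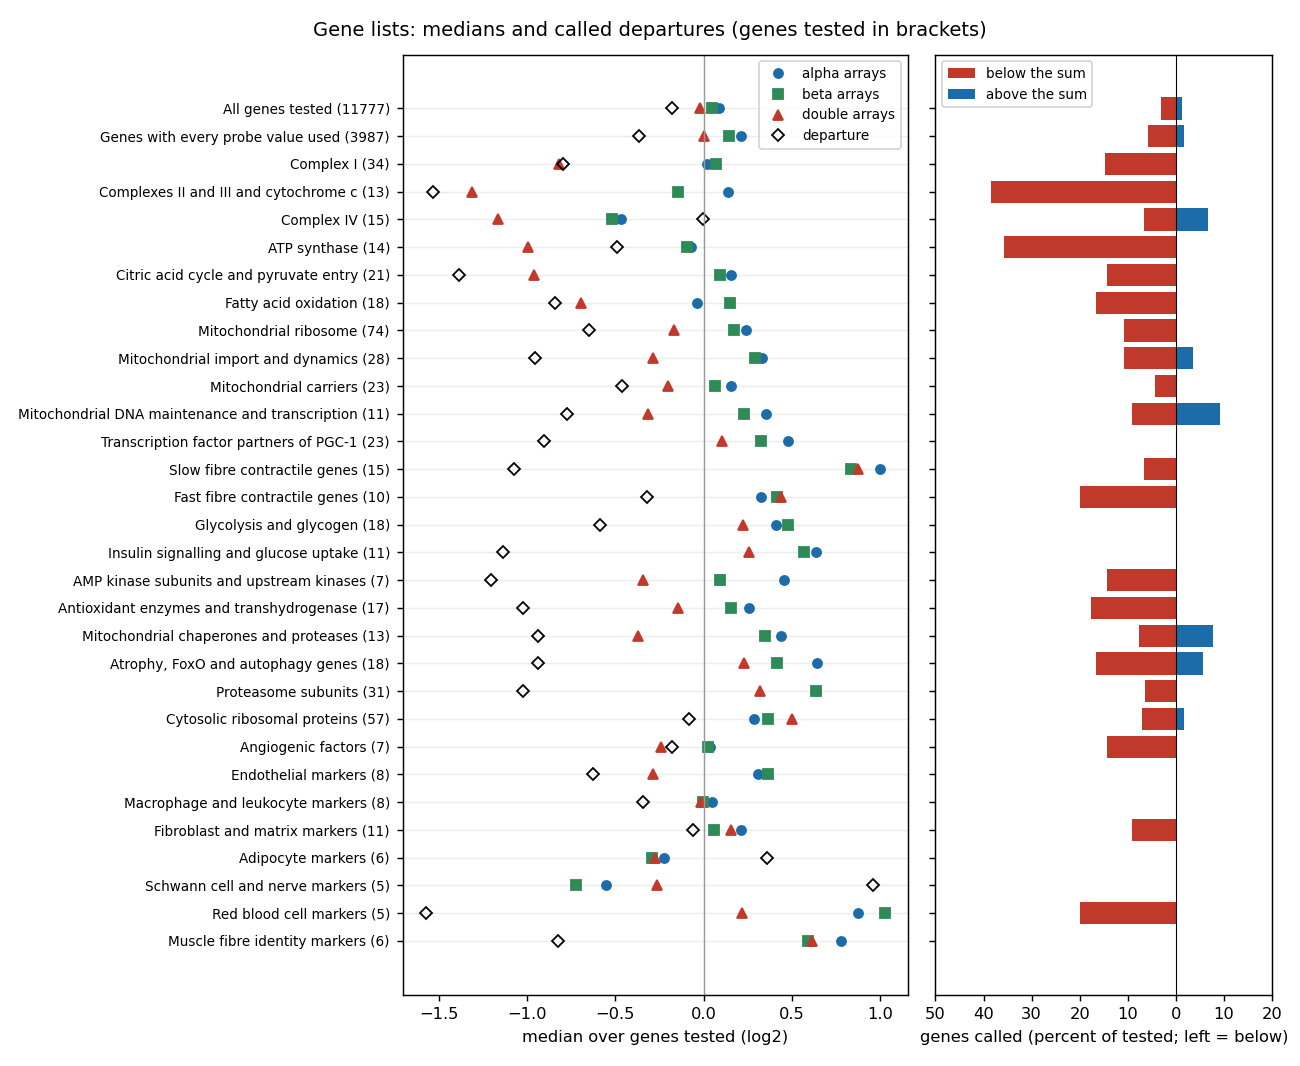
Left, median log2 ratio on the alpha, beta and double arrays and median departure (x) of each gene list (y, genes tested in brackets). Right, percent of tested genes called below (red, to the left) and above (blue, to the right) the sum. Complexes II and III have the highest share below, and complex IV the median departure nearest to 0.

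The genes called by both measures with the smallest p of direct minus beta were Clybl, Endog, Kdm6b, Maf1 and Polr2k. Clybl, a mitochondrial enzyme that clears citramalyl-CoA, departed by -3.68 ± 0.46 (SE) and Endog, a mitochondrial nuclease, by -3.46 ± 0.42. Kdm6b, a histone demethylase, read 3.69 and 3.84 on 2 alpha arrays, 2.11 and 2.78 on beta and 2.86 and 1.50 on 2 double arrays, so it stayed raised while departing by -4.03 ± 0.65. Maf1, a repressor of RNA polymerase III, departed by -3.13 ± 0.42, and Polr2k, a small subunit shared by the RNA polymerases, by 3.18 ± 0.38. Polr2k read -1.99, -2.47 and -2.28 on alpha, -1.52 and -1.81 on beta and -0.97, -0.72 and -0.50 on double arrays.

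The promoters printed above hold letters that part of the called genes share. Among 370 promoters of genes called below the sum, 12 held the NRF1 letters, as capitalised in Uqcrc1, on either strand (3.24%), against 1.77% of 12005 promoters of all tested genes, 0.971% of all 32851 in the table, and 0 of 149 of genes called above. CCGGAAG stood in 18.1%, against 15.5%, 8.86% and 11.4% of these sets. AAGGTCA, the core site of the estrogen-related receptors, stood in 2.70%, against 3.47%, 4.72% and 3.36%, and its longer form TNAAGGTCA, which contains it, in 0.27%, against 0.825%, 1.28% and 0.671%. The genes below the sum with the NRF1 letters included Alas1, the first enzyme of heme synthesis (departure -2.36), Atp5g2 and Uqcrc1. No match of these motifs was found in the windows of Ndufa10, Atp5g1, Got2 and Chchd10, and a match is not evidence of binding.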

How the data were processed

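RNA from mouse gastrocnemius was read on 12 two-colour Agilent arrays. The deposited value table, whose unit is recorded as a score, holds 1 linear Cy5 over Cy3 ratio per probe, which the authors background-subtracted and scaled by 1 factor on each array. How they scanned, corrected and scaled is not given in the sources used here. The authors also deposited tables of mean ratios to floxed muscle, kept per the labels where the fold was at least 2 or at most 0.7. Values of 0 or below and each array's repeated maximum (1e+05 times the factor) were undefined. Ratios within 0.0005 of a fraction of whole numbers up to 10, times the factor, were left out, since dim signals or equal ones give them; the rule looks at the ratio alone. Of 40928 probes, 32443 had 1 symbol, 44 several and 8441 none. Log2 ratios were averaged per symbol and centred on each array's median gene. Chromosome positions come from RefSeq (GRCm38.p6), to which 11752 of 11777 genes matched.

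The main fit used limma 3.58.1 in R 4.3.3 (lmFit, eBayes) on 11 arrays with 1 mean per group, 1 shared spread and two-sided tests, Benjamini-Hochberg adjusted over all genes tested at 0.05; the third beta array was left out and kept as an alternative. The fit was tested on simulated data with known departures. The simulated noise was drawn independently for each array, so it cannot speak to RNA shared between arrays or to the array factor. Named genes were the targeted genes, the 5 given markers, up to 6 called genes of largest departure per class and direction with all 8 values and the double arrays on 1 side of the sum, up to 4 called genes per list (or the 1 of smallest p) and the 5 with smallest p of direct minus beta. Members and lists were chosen with earlier results of these data known. Alternatives changed the arrays, filters, centring, scaling, weights and grouping. Figures used Python 3.11.15 and matplotlib 3.10.9.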

Additional observations from a re-analysis of the deposited data

Results flagged for a closer look

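For 63 named genes the direct arrays (PGC-1beta lost in muscle without PGC-1alpha) differed from the beta arrays (PGC-1beta lost in muscle with it). The test was limma's direct minus beta (Benjamini-Hochberg adjusted p under 0.05, 3 direct and 2 beta arrays), and their departure was called too. The array factor was 3.31 to 6.57 on the direct arrays and 0.22 and 0.50 on beta 1 and 2. Group and factor therefore cannot be told apart here, and only the beta arrays hold floxed RNA. All values are log2, direct minus beta, and below 0 means a lower ratio on the direct arrays than on the beta arrays. Of all tested genes 14.2% were called by this test, and these 63 were named through the same beta arrays, so their number says nothing further. Respiratory chain and ATP synthase genes were Ndufa10 (-3.42), Sdhb (-3.21), Sdhc (-2.86), Atp5d (-2.64), Cyc1 (-2.19), Ndufv1 (-2.18), Atp5g1 (-2.07), Atp5g2 (-1.98), Uqcrc1 (-1.75), Atp5b (-1.39), Ndufa8 (-1.13) and Ndufa9 (-1.08). Genes of metabolism and redox enzymes were Bckdk (-4.22), Prdx2 (-3.71), Clybl (-3.46), Endog (-3.44), Got2 (-2.95), Got1 (-2.82), Gpx1 (-2.53), Slc25a33 (-2.22), Idh3a (-2.11), Echs1 (-1.97), Decr1 (-1.79), Slc25a20 (-1.78) and Gpx4 (-1.50). Genes of mitochondrial translation, import and structure were Mrps23 (-3.04), Fis1 (-2.81), Mrps11 (-2.68), Mrpl2 (-2.60), Mrpl12 (-2.43), Timm13 (-2.24), Chchd10 (-2.17) and Phb2 (-2.06). Other genes below 0 were Kdm6b (-5.63), Cacna2d1 (-4.06), Prkaa2 (-3.72), Maf1 (-3.20), Fmod (-3.004), Hif1a (-2.84), Trim63 (-2.70), Dstn (-2.57), Psmd2 (-2.45), Rps9 (-2.39), Bnip3 (-2.31), Psmd7 (-2.28), Rpl4 (-2.02), Bnip3l (-1.73), Hba-a2 (-1.71), Rpl8 (-1.55), Actn3 (-1.51) and Fndc5 (-1.37). The 12 genes above 0 were Ctsl (2.13), Rps4x (2.45), Cox17 (2.49), Mterf2 (2.56), Hspe1 (2.70), Tomm7 (2.84), Polr2k (3.30), Ugt2b34 (4.85), Dlx5 (4.99), Ccdc78 (5.30), Adam10 (5.47) and Mrgpra2b (5.98). Without beta 1 no gene was called by this test (2441 at an unadjusted p under 0.05).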

How the results depend on the processing

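Beside the 511 departures and 1673 calls of direct minus beta, 349 raised genes lay below the sum; counts follow in this order. They were 0, 403 and 0 with the third beta array kept, 0, 131 and 0 with dim ratios kept too, and 12, 686 and 1 without centring. With array weights on 12 arrays they were 2300, 2812 and 1258, without the arrays numbered 1 (added after seeing the data) 0, 0 and 0, and fitted per probe 1358, 3057 and 811. The departures and raised genes below the sum were 204 and 144 with dim ratios kept, 163 and 122 with a value on 1 array per group, 1095 and 753 with arrays scaled, and 0 and 0 by channel labels. With the array factor as a covariate, 1009 and 3135 genes were called by departure and by direct minus beta, the latter 2240 above and 895 below 0. Leaving out each array in turn gave 0 to 1131 departures, 0 to 1927 calls of direct minus beta and 0 to 744 raised genes below the sum: none without alpha 3, beta 1 or beta 2, 117 and 169 departures without alpha 1 and 2, 1131, 90 and 118 without double 1, 2 and 3, and 302 and 767 without direct 2 and 3. Direct minus beta gave 0, 293, 1088 and 954 without beta 1, beta 2, direct 2 and direct 3. Where no gene was called by limma, 1595 to 2489 departures had an unadjusted p under 0.05. The 2 routes differed in 0 genes under each alternative that refits them; the fit on 8 arrays holds no direct arrays and another class limit leaves the fit as it is. By channel labels 1792 genes then had an unadjusted p under 0.05. Of the 511 called departures, 4 changed sign with dim ratios kept, 5 with the third beta array kept too, 9 of 488 by channel labels and 74 with the array factor as a covariate. Among the named called genes these were Dstn (0.18) with dim ratios kept, Dstn (0.044) and Timm23 (0.066) with the third beta array kept too, Atp5a1 (0.018), Chchd10 (0.72), Cox4i1 (0.44), Fndc5 (0.31) and Ndufa8 (0.34) by channel labels, and Atp5a1 (0.33), Cox4i1 (0.48), Gpx4 (0.74), Mrpl12 (0.43), Mrpl2 (1.72), Psmd7 (0.38), Rpl8 (0.92), Rps9 (0.68) and Timm13 (0.21) with the array factor as a covariate. The cause was not tested.

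Arrays share replicate numbers across groups. Same-numbered arrays correlated in their deviations at -0.31 to 0.47, over 0.1 in 9 of 15 pairs, and 10 of 11 arrays correlated best with their own number, a hint from the data and not the design. With the replicate block, 1334 departures (398 above, 936 below) and 911 raised genes below the sum were called.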
